A study of Mus musculus with 50 samples.

Results

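The late step is the change in transcript levels between 24 h and 48 h after doxycycline (Dox) withdrawal in mouse embryonic stem cells that depend on Dox for the kinase Cdk12. It was formed for every gene that carries both changes in the authors' deposited table, 12766 of 12819 genes, as the log2 of the level at 48 h over the level at 24 h. The libraries behind it are 4 at 48 h and 4 at 24 h, 8 of the 50 samples of the series. They come from clones 28 and 36, 2 independently derived lines of V6.5 cells in which the endogenous Cdk12 is knocked out and a Dox-inducible transgene for Cdk12 with Flag and HA tags replaces it, each clone in biological duplicate. At 48 h the cells had been without Dox for 48 h, at 24 h for 24 h, and the shared 0 h cells were kept in Dox at 1 µg/mL. All groups were grown on gelatin with serum and LIF, and in all of them the transgene is the only source of intact Cdk12. The parental line, clone 21, has floxed Cdk12 and lacks the transgene. It was held in Dox for 17 days and harvested at the same times in 2 libraries each as the study's control for Dox, and enters here only through a yes or no mark per gene. The 32 chromatin immunoprecipitation and control libraries are not analysed here.

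Cdk12 pairs with cyclin K and phosphorylates serine 2 of the heptad repeats in the C-terminal domain (CTD) of RNA polymerase II, a mark of elongating polymerase. Loss of the kinase is known from other work to shorten transcripts by polyadenylation within introns, above all in long genes, among which DNA repair genes are the best studied. Transcripts and proteins made before the loss decay at their own rates, so a time course separates what changes within the first day from what follows.

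The table holds the authors' comparisons of 0 h with each later time and no column per library, so depth, expression level and the spread between libraries are unknown. The level of each gene per library, and the level of markers of embryonic stem cells or other cell types, could therefore not be given. A late step has no test and no error, and each count of late steps is a count by size alone. The only statistics are the authors' own for 48 h or 24 h against 0 h. A gene is called here where their posterior probability of a difference was at least 0.95. Beside some named genes stands the adjusted p of the authors' second statistic, for which neither labels nor headers name a test. Calls at 48 h rest on the same 48 h libraries as the late step and so do not test it. No header gives the direction of a change. Column names put 0 h before the later time, and Cdk12 has the sign of a loss under the reading 0 h over later time, which was used here. Under the opposite reading every higher and lower would be exchanged. In bulk RNA, fewer cells of a type and less RNA per cell cannot be told apart.

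Cdk12 transcripts themselves were as low at 48 h as at 24 h. In the authors' deposited table they stood at 65.4% of the 0 h level at 48 h and at 65.6% at 24 h, a late step of -0.00347 on the log2 scale. The gene was not called at either time. These values do not separate transcripts of the transgene from any left of the knocked-out gene. They therefore do not measure how much intact Cdk12 RNA remained. Ccnk, which encodes cyclin K, had a change of -0.02 at 48 h and of -0.02 at 24 h per the authors' deposited table. The related kinase gene Cdk13 stood at -0.19 at 48 h and -0.10 at 24 h per the authors' deposited table, with neither called.

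Over all genes the late step was centred near 0, and a small number of genes moved far in each direction. Its median was -0.01, with quartiles of -0.16 and 0.15, and 95% of genes lay between -0.59 and 0.61 on the log2 scale. For comparison, the central 95% of changes from 0 h spanned -1.002 to 0.88 at 48 h and -0.66 to 0.54 at 24 h per the authors' deposited table. At 48 h 47 genes were at least 2-fold higher than at 24 h, 0.368% of all genes, and 47 were at least 2-fold lower, also 0.368%. At 1.5-fold the counts were 370 higher, 2.9% of genes, and 331 lower, 2.59%. The authors' deposited table calls 461 genes as higher at 48 h than at 0 h, 3.72% of 12408 with a posterior probability, and 493 as lower, 3.97%. Of the 2-fold late steps 31 of the higher and 26 of the lower genes were so called, and 15 and 20 were called at neither time. Among 7899 genes with posterior probabilities under 0.05 at both times, 63 were still 1.5-fold higher and 45 1.5-fold lower at 48 h than at 24 h per the authors' deposited table. A late step of that size also occurs, then, among genes to which the authors' model gave a low probability of a difference from 0 h.

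For genes called at 48 h, about as much of the change seen by 48 h came in the late step as in the first. For the 461 genes called as higher at 48 h per the authors' deposited table, the median late step was 0.445 on the log2 scale, and a median of 49.3% of the 48 h change was already present at 24 h, with quartiles of 35.3% and 62.5%. For the 493 genes called as lower, the median late step was -0.45 and the median share present at 24 h was 47.6%, with quartiles of 35.6% and 62.2%. Only 9 of the 461 were lower at 48 h than at 24 h, and 11 of the 493 were higher. The call at 48 h favours genes with a large 48 h change, so these shares describe the called genes and no others. Genes called at 24 h, a call that favours a large first step, had higher shares. The median share was 82.1% for the 57 called as higher at 24 h and 73.7% for the 86 called as lower.

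With a boundary of 1.5-fold on each step, the 984 genes called at either time fell into 5 classes. The late step alone passed it in 195 genes, 19.8% of them, with 108 higher and 87 lower at 48 h. Both steps passed it in one direction in 94 genes, 39 of them higher and 55 lower. The first step alone passed it in 178 genes, whose median late step was 0.31 in size. Steps in opposite directions were found in 3 genes, and 514 genes, 52.2%, reached their call with neither step past the boundary, at median sizes of 0.37 for both steps. The steps share the 24 h libraries, so an error in these libraries moves them in opposite directions. The plot of the late step against the first step shows these classes.

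**Figure D1:**
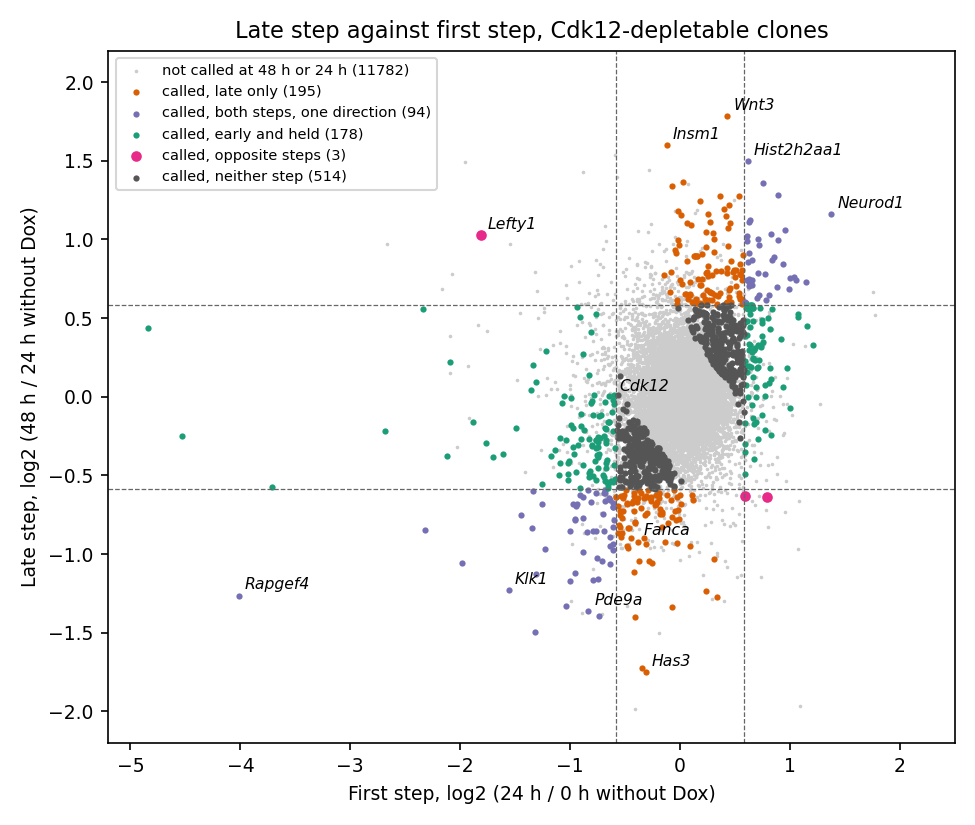
Late step (log2 of 48 h over 24 h, vertical) against first step (log2 of 24 h over 0 h, horizontal), 1 point per gene, with dashed lines at 1.5-fold and colours for the classes of the 984 called genes. Most called genes lie in the upper right and lower left, and Lefty1 is the pink point in the upper left. Pvalb, at -4.75 and -7.52, and 2 genes with first steps of 2.54 (Apoo-ps) and 14.14 (Gm14430) lie outside the frame.

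Wnt3, Insm1 and Hist2h2aa1 were the named genes with the largest increases between 24 h and 48 h, and several others near the top are known from development. Wnt3, a secreted ligand needed for the primitive streak in the mouse embryo, stood at 463% of its 0 h level at 48 h and 134% at 24 h per the authors' deposited table, a late step of 1.78 on the log2 scale, or 3.45-fold (adjusted p at 48 h against 0 h = 3.46e-06 by the authors' second statistic). Insm1, a zinc finger repressor of neuroendocrine development, stood at 279% at 48 h and 91.9% at 24 h per the authors' deposited table, 3.04-fold apart. Dll1, a ligand of Notch receptors, followed the same course, with 240% at 48 h and 95% at 24 h per the authors' deposited table. Both of the last were thus slightly below the 0 h level at 24 h and well above it a day later. Neurod1, a neurogenic transcription factor, stood at 579% at 48 h and 259% at 24 h per the authors' deposited table and so passed 1.5-fold in both steps. Dll1 and Neurod1 carry the authors' Dox mark, Wnt3 and Insm1 do not. All 4 were called as higher at 48 h and none of them at 24 h.

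Other genes among the 15 largest increases have varied roles. Receptor-type tyrosine phosphatases were present with Ptpre, at 264% of the 0 h level at 48 h and 102% at 24 h, and Ptprv, at 352% and 145%, per the authors' deposited table. Ptprv was already called at 24 h, and RefSeq lists it as a transcribed pseudogene. Sema6a, a transmembrane semaphorin of axon guidance, had 268% at 48 h and 113% at 24 h per the authors' deposited table. Plxdc2, a plexin domain protein, had 224% at 48 h and 98.9% at 24 h per the authors' deposited table. It thus stood near its 0 h level at 24 h, with a posterior probability of 0.00228 per the authors' deposited table. Matn1, a cartilage matrix protein, was called but missed the second statistic at an adjusted p of 0.0742 per the authors' deposited table, with a late step of 1.16. Tmem35 had a late step of 1.19. Cd80, Ephx1 and the histone genes Hist2h2aa1 and Hist2h3c1 are also among the 15. Just below them stood the neighbouring genes of the leukotriene B receptors, Ltb4r1 at 1.06 and Ltb4r2 at 1.04, and the peptide transporter gene Tap1 at 1.12 on the log2 scale. Of the genes in this paragraph Ptprv, Sema6a, Ephx1, Hist2h3c1 and Tap1 carry the authors' Dox mark.

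**Figure D2:**
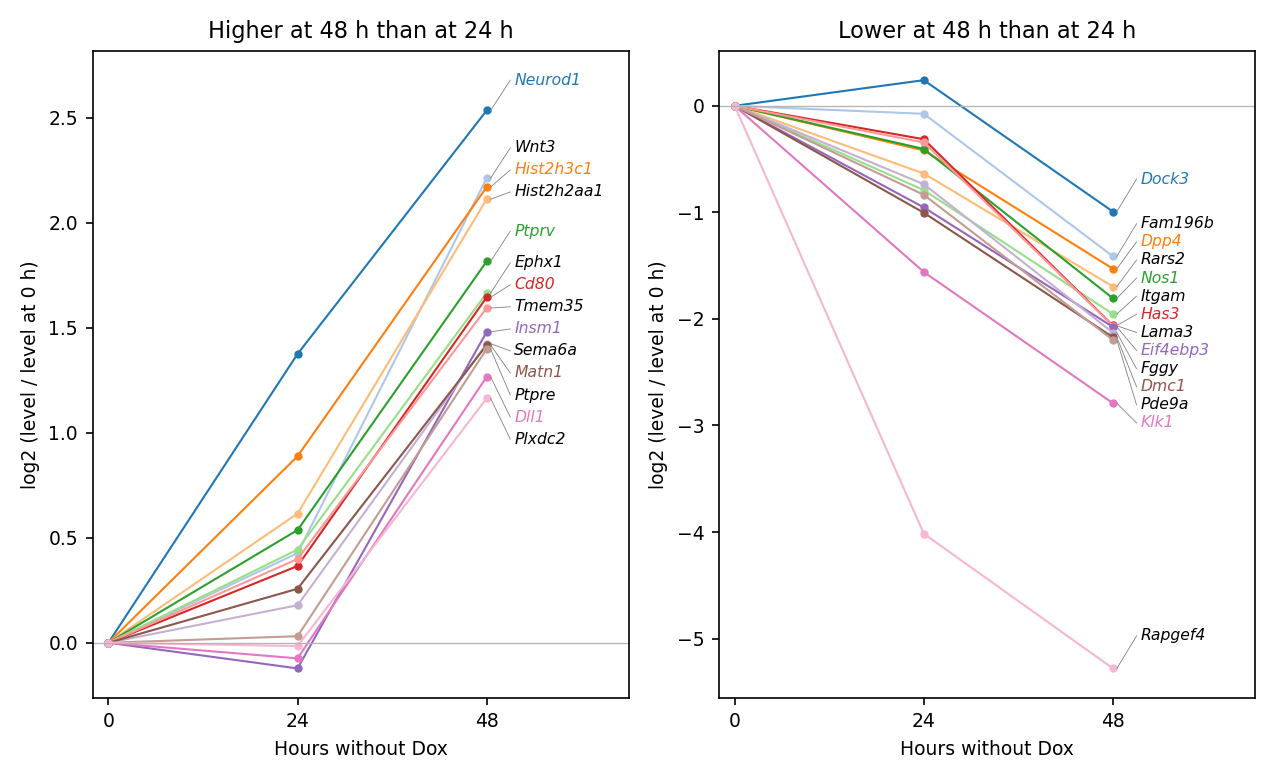
Level relative to 0 h on the log2 scale (vertical) against hours without Dox (horizontal) for 14 of the 15 genes with the largest late increases (left) and 14 of the 15 with the largest late decreases (right), 1 line per gene, with no error available. Insm1, Dll1 and Plxdc2 lie at or below 0 at 24 h and above 1 at 48 h, while Rapgef4 is already at -4.02 at 24 h; Pvalb is left out because its values are off the scale.

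Genes that were lower at 48 h than at 24 h tended to lie below the 0 h level already at 24 h. The 47 genes past 2-fold had a median first step of -0.41 on the log2 scale, where the 47 higher ones had a median of 0.24. Has3, a hyaluronan synthase, stood at 24.0% of its 0 h level at 48 h and 80.5% at 24 h per the authors' deposited table, a 3.36-fold decrease, but its adjusted p by the second statistic was 0.85. Lama3, a laminin chain of basement membranes, had 23.9% at 48 h and 78.8% at 24 h per the authors' deposited table. Has3 and Lama3 were both called at 48 h, and the second statistic is missing for Lama3. Nos1, the neuronal nitric oxide synthase, had 28.6% at 48 h and 75.5% at 24 h per the authors' deposited table. Pde9a, a phosphodiesterase of cyclic GMP, had 21.8% at 48 h and 56.1% at 24 h per the authors' deposited table. Nos1 and Pde9a both passed the second statistic, at adjusted p values of 0.000217 and 1.07e-05 per the authors' deposited table. Each of them has the Dox mark. The carbohydrate kinase gene Fggy stood at 22.9% at 48 h and 60.1% at 24 h per the authors' deposited table.

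Rapgef4, a cAMP-activated exchange factor for Rap GTPases, continued a steep early decrease. It stood at 2.57% of its 0 h level at 48 h and 6.18% at 24 h per the authors' deposited table, 2.4-fold lower, and was called at both times. Klk1, a tissue kallikrein, was likewise called at both, with 14.4% at 48 h and 33.9% at 24 h per the authors' deposited table. Dmc1, the recombinase of meiosis, had 22.2% at 48 h and 49.9% at 24 h per the authors' deposited table. Dock3, an activator of Rac, went the other way in the first step and was at 50.3% at 48 h and 118% at 24 h per the authors' deposited table. Further large decreases were those of the leukocyte integrin gene Itgam (-1.16), of Dpp4, a peptidase of the cell surface (-1.11), of Rars2, the mitochondrial arginyl-tRNA synthetase (-1.06), and of Fam196b (-1.34). Eif4ebp3, a binding protein of the translation factor eIF4E, had a late step of -1.12, and its neighbour Ankhd1, whose locus produces transcripts joined to Eif4ebp3, one of -0.61. Reads of these overlapping genes may not be separable. Pvalb, a calcium-binding protein gene, had the lowest late step of any gene, -7.52, with changes of -12.27 at 48 h and -4.75 at 24 h per the authors' deposited table. It has no posterior probability at 48 h, and values of this size without a known level cannot be turned into a fold.

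Replication-dependent histone genes had the highest median late step of the 40 lists with at least 5 measured members. These genes are transcribed with S phase, and their transcripts normally end in a stem-loop without a poly(A) tail, so poly(A)-selected RNA counts only their polyadenylated forms. The median of 18 measured members was 0.50, against -0.01 over all genes, and 16 of them were above 0. Past 1.5-fold were 7 higher and 0 lower members, beside 2.9% and 2.59% of all genes. The list's medians from 0 h were 0.54 at 48 h and 0.05 at 24 h per the authors' deposited table. The median at 24 h covers members on both sides of 0, from Hist1h4h at -0.61 to Hist2h3c1 at 0.89. Of the called members Hist2h3c1, Hist1h2bc, Hist2h2aa1 and Hist2h2be had first steps of 0.89, 0.63, 0.61 and 0.59. The first steps of the called Hist1h1c, Hist3h2a and Hist3h2ba were 0.29, 0.004 and -0.03. Hist2h2aa1, an H2A gene, stood at 432% of its 0 h level at 48 h and 153% at 24 h per the authors' deposited table. The H3 gene Hist2h3c1 stood at 450% at 48 h and 185% at 24 h per the authors' deposited table. For Hist3h2ba, an H2B gene, the values were 184% at 48 h and 97.8% at 24 h per the authors' deposited table, and for its neighbour Hist3h2a 168% and 100.3%. Both genes of this pair were called at 48 h but missed the second statistic, at adjusted p values of 0.133 and 0.136 per the authors' deposited table. Members without a call ran from Hist1h3a at 0.72 to Hist1h2ao at -0.26. Called as higher at 48 h were 7 of the 18, beside 3.72% of all genes, and 5 of the 7 passed the second statistic. Hist2h2aa1 and Hist2h3c1 have near-identical copies beside them, so their values are uncertain where reads were shared. Of the called members 3 carry the Dox mark.

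The promoters of 3 of these genes are shown as examples, picked from pairs of neighbouring histone genes that were both higher at 48 h than at 24 h. Each is the window of 250 bases before and 50 after the annotated start, 5′ to 3′ on the gene's plus strand, from RefSeq on GRCm38.p6. Capitals mark TATAAA and CCAAT in either orientation (TTTATA and ATTGG are their reverse complements), and none of the marked matches overlap. Hist2h2aa1 lies at chr3:96245247-96245546, Hist2h3c1 at chr3:96246435-96246734 and Hist3h2ba at chr11:58948661-58948960.
Hist2h2aa1: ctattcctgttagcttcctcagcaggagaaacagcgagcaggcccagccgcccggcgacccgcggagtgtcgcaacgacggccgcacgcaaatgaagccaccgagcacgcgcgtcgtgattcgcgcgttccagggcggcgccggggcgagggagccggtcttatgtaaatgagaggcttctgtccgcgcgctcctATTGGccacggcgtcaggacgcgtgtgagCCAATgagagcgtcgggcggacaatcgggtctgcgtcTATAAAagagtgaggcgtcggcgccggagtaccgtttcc
Hist2h3c1: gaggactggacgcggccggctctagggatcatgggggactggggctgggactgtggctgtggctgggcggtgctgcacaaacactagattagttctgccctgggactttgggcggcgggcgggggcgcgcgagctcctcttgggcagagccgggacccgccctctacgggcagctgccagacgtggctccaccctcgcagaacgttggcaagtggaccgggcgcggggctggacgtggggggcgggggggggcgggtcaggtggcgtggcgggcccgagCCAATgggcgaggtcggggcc
Hist3h2ba: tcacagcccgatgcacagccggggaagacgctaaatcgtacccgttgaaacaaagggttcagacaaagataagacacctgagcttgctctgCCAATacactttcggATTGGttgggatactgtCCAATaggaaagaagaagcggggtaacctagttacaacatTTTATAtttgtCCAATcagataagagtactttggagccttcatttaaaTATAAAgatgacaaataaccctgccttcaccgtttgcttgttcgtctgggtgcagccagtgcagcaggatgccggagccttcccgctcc
All 3 windows hold CCAAT, and those of Hist2h2aa1 and Hist3h2ba hold TATAAA. The windows of Hist3h2a and Hist1h1c, also in such pairs but not shown, hold CCAAT and no TATAAA. Of the 18 histone genes 15 matched a promoter in the table, and 12 of these, 80%, held CCAAT on either strand, against 41.1% of 27025 genes. TATAAA was found in 6 of the 15, or 40%, against 15.7% of all, and GGGCGG in 7, or 46.7%, against 38.2%. Among genes at least 2-fold higher at 48 h than at 24 h and called at 48 h, 6 of the 21 with a promoter (28.6%) held TATAAA, as did 1 of 20 (5%) among those 2-fold lower. CACGTG and TGACTCA were in 0 of the 15 histone promoters, against 8.09% and 5.95% of all. The 27025 genes include many not measured here, and no share over the measured genes was taken. A match is only a match of letters, and its absence says only that these letters are not in the window.

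Targets of p53, the transcription factor that answers DNA damage and other stress, were the second list by median. The 42 measured members had a median late step of 0.39, with 37 above 0 and 5 below. At least 1.5-fold higher were 8 members and none was 1.5-fold lower, beside 2.9% and 2.59% of all genes. In the authors' deposited table the list's median change was 0.68 at 48 h and 0.22 at 24 h, and 19 of 39 members with a posterior probability were called as higher at 48 h, beside 3.72% of all genes. The second statistic was passed by 11 of the 19, and Cdkn1a was among those that missed it. Cd80, a ligand that costimulates T cells, stood at 313% of its 0 h level at 48 h and 129% at 24 h per the authors' deposited table. Ephx1, the microsomal epoxide hydrolase, had 317% at 48 h and 136% at 24 h per the authors' deposited table. The stress response gene Trp53inp1 had 219% at 48 h and 126% at 24 h per the authors' deposited table. For these members the late step was larger than the first, and none was called at 24 h. Zfp365 and the polo-like kinase gene Plk2 were called at both times per the authors' deposited table, with late steps of 0.92 and 0.79. Ddit4, an inhibitor of mTORC1, had a late step of 0.75, and the pro-apoptotic gene Bbc3 one of 0.63. Mdm2, the ubiquitin ligase of p53, lay just under the 1.5-fold boundary at 0.58, and the cell cycle inhibitor gene Cdkn1a at 0.52. The lowest members were Triap1 at -0.10, Bax, a pore-forming pro-apoptotic gene, at -0.07 and Plk3 at -0.05. The authors' Dox mark covers 11 of the 19 called members, and without marked genes the list's median late step was 0.231. The part of Dox withdrawal itself in these values was not tested. A full p53 site was found in the promoter windows of 0 of the 33 list genes with an entry in the promoter table. Of all 27025 genes 3 held it, or 0.0111%. It was searched as adjoining half-sites without spacer or mismatch, so rare a pattern that the 0 carries no information on these genes. GGGCGG was held by 25 of the 33, or 75.8%, against 38.2% of all. The genes past 2-fold in the late step and called at 48 h also held it often, 71.4% of the higher and 55% of the lower ones. The 27025 genes include many not measured here, and no share over the measured genes was taken. Whether these shares set the p53 list or the late-step genes apart from other measured genes was therefore not tested. Some genes have several windows, and a match in any of them was counted.

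**Figure D3:**
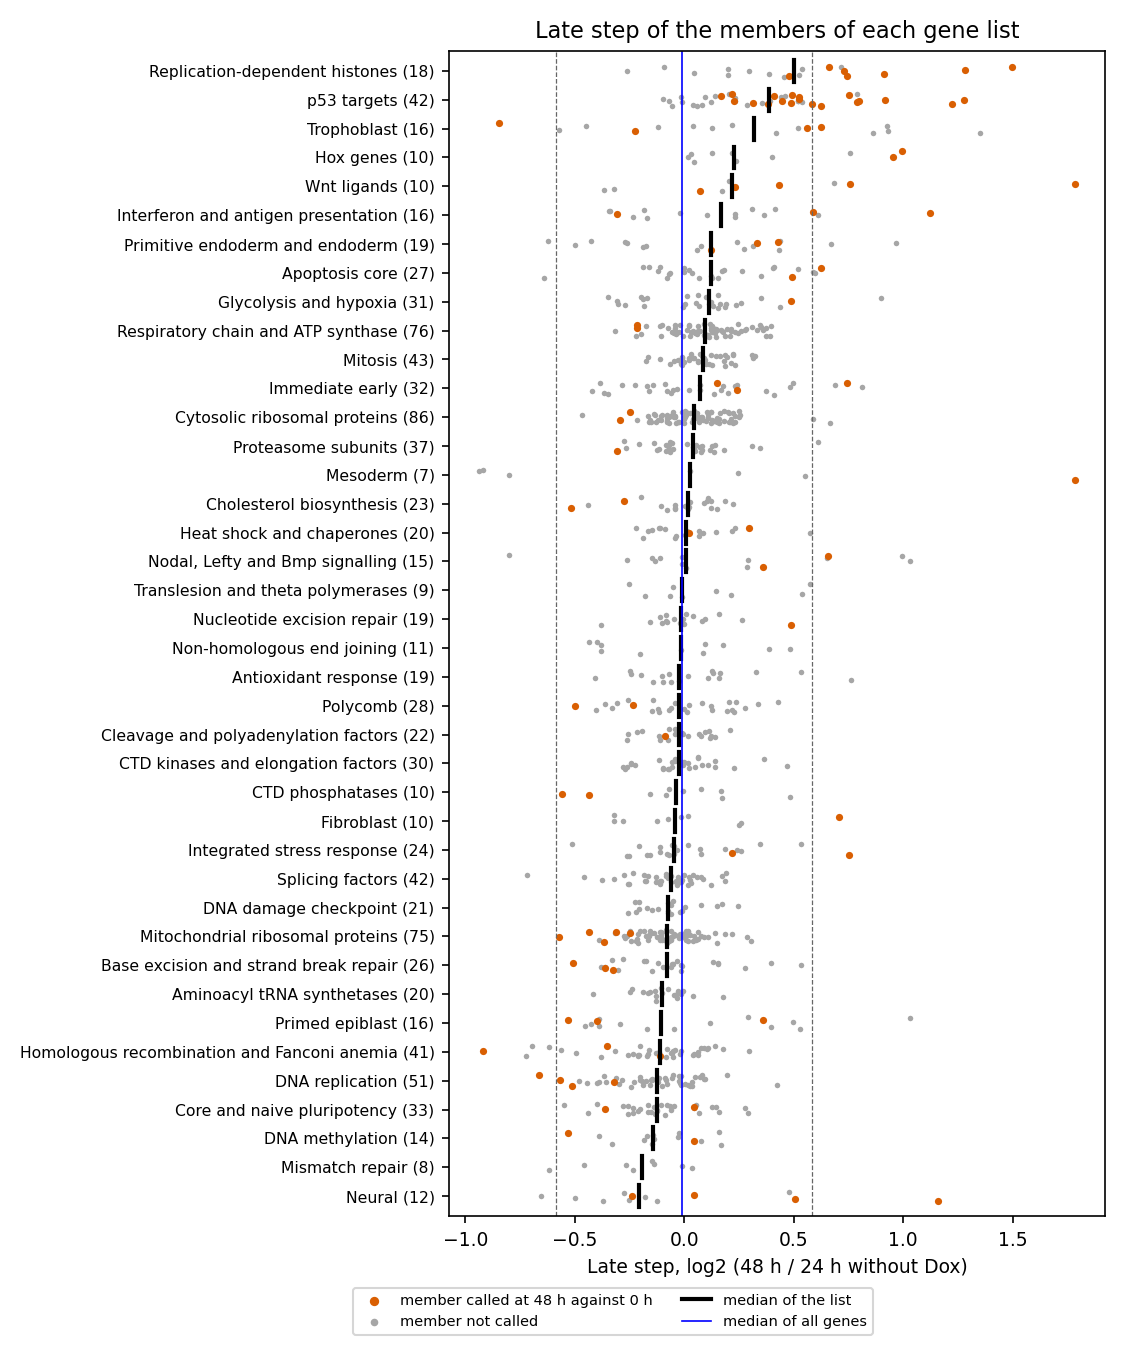
Late step on the log2 scale (horizontal) of each measured member of the 40 gene lists (vertical, number of members in brackets), with the list's median as a black bar, the median of all genes as a blue line and dashed lines at 1.5-fold. Histones and p53 targets have medians of 0.50 and 0.39, with called members in orange to the right, while Fanca is the leftmost of the repair genes at -0.92.

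Homologous recombination and Fanconi anemia genes, which repair double-strand breaks and crosslinks and are the genes most often linked to Cdk12, lay slightly lower at 48 h than at 24 h. Of 41 measured members 30 were below 0 in the late step, with a median of -0.11, and 4 were at least 1.5-fold lower and 0 higher, beside 2.59% and 2.9% of all genes. Fanca, a subunit of the Fanconi core complex, stood at 40.4% of its 0 h level at 48 h and 76.6% at 24 h per the authors' deposited table, with an adjusted p at 48 h of 3.22e-05. It was the one member called and past 1.5-fold in the late step. At 48 h 3 of 40 members with a posterior probability were called as lower, beside 3.97% of all genes, and 0 as higher. They were Fanca, Rad51c and Mus81. Mus81 had a late step of -0.35, carries the Dox mark and missed the second statistic at an adjusted p of 0.273. Brca2, a mediator of homologous recombination, had 45.1% at 48 h and 74.4% at 24 h per the authors' deposited table. Fancd2, which the core complex marks with ubiquitin, had 42.6% at 48 h and 68.9% at 24 h, and the nuclease gene Exo1 48.8% and 74.9%, per the authors' deposited table. These 3 were not called, with posterior probabilities at 48 h of 0.788, 0.123 and 0.0655 per the authors' deposited table. Rad51c, a further recombination gene and called at 48 h, differed little between the later times, with 53.4% at 48 h and 57.8% at 24 h per the authors' deposited table. Brca1 had a late step of -0.26 and Rad50 of 0.11.

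The other repair lists held few large late steps. Of 8 mismatch repair genes 7 were below 0, with a median of -0.19 and Exo1 the only member past 1.5-fold. None of 21 DNA damage checkpoint genes, 26 base excision and strand break repair genes, 19 nucleotide excision repair genes, 11 end joining genes and 9 translesion and theta polymerases was past 1.5-fold in either direction. Their medians were -0.07, -0.08, -0.02, -0.02 and -0.01, in that order. The members farthest out were the translesion polymerase genes Rev1 at 0.57 and Polk at 0.54, Neil3, a DNA glycosylase, at 0.53, and Tdp1, which removes topoisomerase adducts from DNA, at -0.51. Of these 4 Tdp1 was called, as lower at 48 h, and the flap nuclease gene Ercc5, at 0.49, was called as higher and carries the Dox mark. Of the 26 base excision and strand break repair genes 3 were called as lower at 48 h, beside 3.97% of all genes. They were Tdp1, Mutyh at -0.36 and Ogg1 at -0.33, and Ogg1 carries the Dox mark. DNA replication genes leaned lower, with 39 of 51 below 0 and a median of -0.125. The authors' deposited table calls 4 of them as lower at 48 h, beside 3.97% of all genes. Tk1, the thymidine kinase, had a late step of -0.51 and Orc3, of the origin recognition complex, of -0.57, both called at 48 h. Mitosis genes leaned the other way, their median being 0.09 with 31 of 43 above 0, and none past 1.5-fold or called.

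Genes of the machinery that Cdk12 serves showed small late steps. None of 30 CTD kinases and elongation factors and none of 22 cleavage and polyadenylation factors was past 1.5-fold, and both medians were -0.03. The member farthest out in each was Cdc73, of the Paf1 complex, at 0.47 and Cpsf7 at -0.26, neither called. Among 10 CTD phosphatases 2 were called as lower at 48 h per the authors' deposited table, beside 3.97% of all genes. Rpap2, which removes the phosphate of serine 5, stood at 43.1% at 48 h and 63.5% at 24 h, and Ssu72 at 57.5% and 77.8%, per the authors' deposited table. Their late steps of -0.56 and -0.44 were close in size to their first steps of -0.66 and -0.36 per the authors' deposited table, and Ssu72 carries the Dox mark. Of 42 splicing factors 30 were below 0, with a median of -0.06, and 1, Prpf31, was past 1.5-fold at -0.72 without a call. Cytosolic ribosomal protein genes had a median late step of 0.05 over 86 members and mitochondrial ones of -0.08 over 75. Respiratory chain genes stood at 0.09 over 76 members with 54 above 0, and 18 of 20 aminoacyl-tRNA synthetase genes were below 0, with a median of -0.10. No member of these last 2 lists passed 1.5-fold, and the synthetase list leaves out those that serve mitochondria alone, such as Rars2. The medians of 37 proteasome, 28 Polycomb, 20 heat shock and 19 antioxidant genes were 0.04, -0.02, 0.01 and -0.02.

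Genes of the pluripotent state lay slightly lower at 48 h than at 24 h. Of 33 core and naive pluripotency genes 24 were below 0 with a median of -0.13, after a median first step of 0.15, which left the list at 0.02 at 48 h per the authors' deposited table. None passed 1.5-fold. Pou5f1, which encodes Oct4, had a late step of -0.06, Sox2 of 0.13 and Nanog of -0.21, and Gbx2 was lowest at -0.55, none of them called. The DNA methyltransferase gene Dnmt3a, called as lower at both times, stood at 34.2% at 48 h and 49.5% at 24 h per the authors' deposited table, and the median of 14 DNA methylation genes was -0.14. Primed epiblast genes had a median of -0.11 over 16 members. Of the 2-cell-like list 1 member was measured, Eif1a, at -0.145.

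Lineage lists held some of the farthest late steps, but most of their members past 1.5-fold were not called. Trophoblast markers had a median late step of 0.32 over 16 members, with 5 at least 1.5-fold higher and 1 lower, beside 2.9% and 2.59% of all genes. At 48 h 1 member was called as higher and 3 as lower, Tfap2a, Ascl2 and Esx1, per the authors' deposited table, beside 3.72% and 3.97% of all genes. Only 1 of the 5 was called at 48 h, Tfap2c, at 228% at 48 h and 148% at 24 h per the authors' deposited table. The others were Hand1 at 1.35, Gata3 and Cdx2 at 0.93 each, and the keratin gene Krt7 at 0.86. Tfap2a, a relative of Tfap2c that was called at both times, was lower still in the late step, with 11.1% at 48 h and 20.0% at 24 h per the authors' deposited table. Mesoderm markers split, with Wnt3 at 1.78 and 3 of 7 members, Kdr, Evx1 and Bmp4, lower by at least 1.5-fold, at -0.94, -0.92 and -0.80. Over 19 primitive endoderm and endoderm genes the median was 0.12, with 7 members below 0. Past 1.5-fold were the growth factor receptor gene Pdgfra at 0.97, the nuclear receptor gene Hnf4a at 0.67 and, on the lower side, the endocytic receptor gene Cubn at -0.62, none of them called. Of the other endoderm genes 3 were called as higher at 48 h and 0 as lower, beside 3.72% and 3.97% of all genes. The neural list had a median of -0.21 over 12 members, and Neurod1 stood apart from it at 1.16, with Sox1 lowest at -0.65. Of the 12 neural genes 3 were called as higher at 48 h and 1 as lower, beside the same shares of all genes. Of 10 fibroblast markers the collagen gene Col1a1 was the one past 1.5-fold, at 0.71, called and with the Dox mark. Levels of these markers are unknown here, so the number of differentiated cells in the cultures was not examined.

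Wnt ligands and Hox genes lay mostly above 0 in the late step. Of 10 Wnt ligands 8 were above 0, with a median of 0.22, and 3 were at least 1.5-fold higher, beside 2.9% of all genes, namely Wnt3, the noncanonical ligand Wnt5a at 0.76 and Wnt4 at 0.69. The authors' deposited table calls 5 Wnt ligands as higher at 48 h, among them Wnt5a and Wnt9a, and 0 as lower, beside 3.72% and 3.97% of all genes. All 10 measured Hox genes were above 0, with a median of 0.23. Hoxc13, a regulator of hair and nail keratinization, stood at 369% at 48 h and 185% at 24 h, and Hoxb13 at 228% and 118%, per the authors' deposited table. Of the Nodal, Lefty and Bmp list 4 of 15 were at least 1.5-fold higher and 1 lower, beside 2.9% and 2.59% of all genes. Its median was 0.01. Bmp7 stood at 164% at 48 h and 104% at 24 h per the authors' deposited table and was called. Lefty1, an inhibitor of Nodal, was one of the 3 called genes whose steps opposed each other past 1.5-fold. It stood at 58.3% of the 0 h level at 48 h, without a call, and at 28.5% at 24 h, with one, per the authors' deposited table. The other such called genes were Arhgef26 and the neuropilin gene Nrp2, both called as higher at 24 h per the authors' deposited table, with late steps of -0.63 each. In the same list Id2 and Id3, inhibitors of helix-loop-helix factors, had late steps of 0.99 and 0.65 after first steps of -0.67 and -0.74 per the authors' deposited table, with a call at neither time.

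In the interferon and antigen presentation list the 3 members past 1.5-fold were neighbours at 1 antigen processing locus. Tap1, a subunit of the peptide transporter for class I antigen presentation, stood at 338% at 48 h and 155% at 24 h per the authors' deposited table. It was called at 48 h and carries the Dox mark. Its neighbours Tap2, the second subunit, at 0.59, and the immunoproteasome gene Psmb9, at 0.61, were also past 1.5-fold, and Tap2 was called. The list of 16 interferon and antigen genes had a median of 0.17, with 3 at least 1.5-fold higher and 0 lower, beside 2.9% and 2.59% of all genes. The interferon response genes Irf1 and Oas1a were at -0.17 and -0.34. Of 27 core apoptosis genes 3 were at least 1.5-fold higher, led by Bbc3, and 1 lower, beside 2.9% and 2.59% of all genes. The median of the apoptosis list was 0.12. Of 32 immediate early genes 3 were at least 1.5-fold higher and 0 lower, beside the same shares of all genes. They were the stress-induced factor gene Atf3 at 0.81, Fosl1 at 0.74 and the phosphatase gene Dusp2 at 0.69. Fosl1, which encodes an AP-1 subunit, was the one of these called, at 348% at 48 h and 208% at 24 h per the authors' deposited table. The medians of that list, of 24 integrated stress response genes, 31 glycolysis and hypoxia genes and 23 cholesterol genes were 0.07, -0.05, 0.11 and 0.02. In the hypoxia list Bnip3, a mitophagy receptor gene, was the one past 1.5-fold, at 0.90.

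Some genes with a large first step showed little further change. The examples that follow were chosen after their values were seen. Duox1, a hydrogen peroxide-producing oxidase, stood at 3.65% at 48 h and 4.33% at 24 h, and its maturation factor Duoxa1 at 4.73% and 3.49%, per the authors' deposited table. Ascl2, a trophoblast regulator, stood at 29.1% at 48 h and 19.7% at 24 h per the authors' deposited table. Of the 86 genes called as lower at 24 h 68 were lower still at 48 h and 18 were higher, with a median late step of -0.31. Of the 57 called as higher at 24 h 38 were above and 19 below 0 in the late step, with a median of 0.11. These genes were called on the same 24 h libraries that form the base of the late step.

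The share of genes at least 1.5-fold lower at 48 h than at 24 h was highest in the quartile of the longest genes, a difference for which no test was run. With genomic spans from RefSeq for 12640 of the 12766 genes, 3.67% of the longest quartile, from 52.9 kb, were at least 1.5-fold lower, against 2.31%, 2.06% and 2.41% in the quartiles from short to long before it. The shares at least 1.5-fold higher were 2.97% in the longest quartile and 3.13%, 2.91% and 2.47% in the others. At 2-fold the longest quartile held 23 of the lower genes and 14 of the higher ones. The median late step was 0.01 in the longest quartile and -0.04 in the shortest, so the middle of the longest was not lower, and its interquartile range was 0.327 against 0.341, 0.304 and 0.297. Spearman's rho of the late step with span was 0.05 across the genes, which share libraries and are not replicates. The 26 genes past 2-fold lower and called at 48 h had a median span of 60.6 kb, and the 30 higher ones with a span one of 26.05 kb, against 22.7 kb for all. Rapgef4, Fggy and Dock3 span 276, 369 and 340 kb, while Plxdc2 and Pde10a, on the higher side, span 405 and 461 kb.

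**Figure D4:**
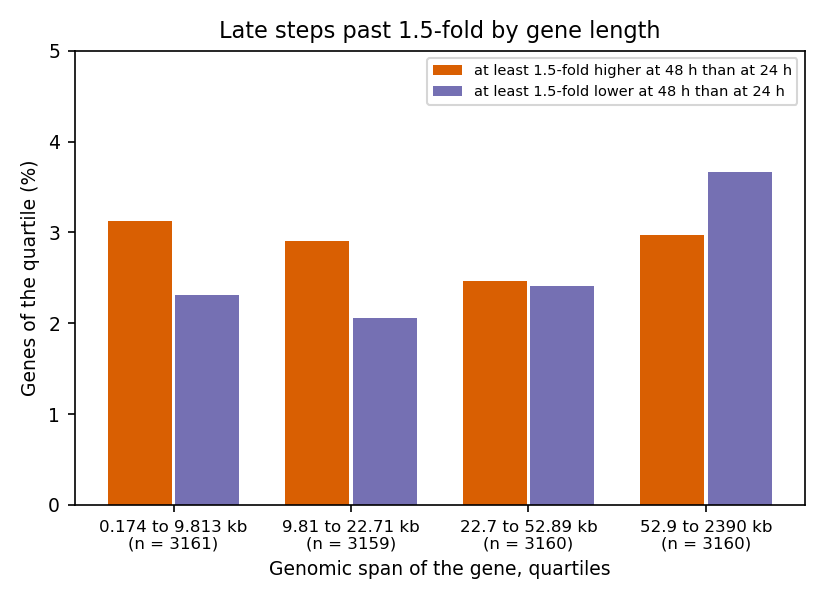
Share of genes (vertical, percent) at least 1.5-fold higher (orange) or lower (purple) at 48 h than at 24 h, by quartile of genomic span in kb (horizontal, number of genes in brackets). The lower share is 3.67% in the longest quartile and between 2.06% and 2.41% in the others, while the higher share runs from 2.47% to 3.13%.

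The Dox mark of the authors, which names an effect of Dox and is defined by neither labels nor headers, covers 149 genes called at 48 h per the authors' deposited table. Marked genes had larger late steps, with a median size of 0.593 against 0.424 for 805 called genes without the mark. All 66 marked genes that were higher at 48 h than at 0 h had a late step above 0, and all 83 lower ones a late step below 0. Among all called genes the same held for 452 of 461 higher and 482 of 493 lower ones, so this trait does not set marked genes apart. Of the 149 marked genes 43 were at least 1.5-fold higher and 34 lower in the late step, against 104 and 107 of the 805 without the mark. In the class with a late step alone, 60 of 195 genes carry the mark, against 11 of 178 in the class with a first step alone. The floxed cells' own values are not used here, so whether these genes moved alike without loss of Cdk12 was not tested.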

How the data were processed

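RNA of 18 poly(A)-selected libraries was measured by sequencing, of which 12 come from the Cdk12-depletable clones, 4 per time, with RNA integrity numbers of 9.4 to 10 in the labels at 24 and 48 h. Per the submitters' processing notes, STAR, RSEM, DESeq, BWA, SAMtools and bedtools and the builds mm9 and mm10 are named, with no role or order. Per the file headers, the table gives for 24 h and for 48 h against 0 h a posterior probability of differential expression (a score from 0 to 1), a log2 fold change, a yes or no Dox mark and an adjusted p-value, each deposited by the authors as the result of their own comparison. Depth is unknown. No column holds values per library, so precision enters only through the authors' statistics.

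The late step is the deposited log2 change of 0 h over 24 h minus that of 0 h over 48 h, so that the 0 h level cancels. No model was fitted and no rescaling made. Counts by size used 2-fold and 1.5-fold, and calls a posterior probability of at least 0.95. The calculation was tested on simulated data with 200 genes placed. Of the 12819 genes 53 lack a 48 h change and were left out, and 358 of the rest lack a posterior probability at 48 h and stay out of calls.

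Gene members and the 42 lists were chosen with earlier results of these data known, and so give no independent support. Named genes were Cdk12, Ccnk and Cdk13, the 15 largest late steps in each direction among genes past 2-fold and called at either time without predicted names, up to 4 members past 1.5-fold per list (called ones first) or the farthest member, and 5 per class. Other genes were named after their values were seen. Some results on single genes that the rule names are left out and not reported here. Spans, gene order and promoters come from RefSeq on GRCm38.p6 by symbol or synonym, and no coordinates of the RNA values are printed because 2 builds are named. Motifs were TATAAA of the TATA box, CCAAT of the CCAAT box, GGGCGG of the GC box, CACGTG of the E-box and TGACTCA of the AP-1 site, on both strands, and the p53 full site. The last was 2 copies of RRRCWWGYYY without spacer or mismatch, with R for A or G, W for A or T and Y for C or T. Python 3.11.15, pandas 2.3.3, numpy 2.4.6, scipy 1.17.1 and matplotlib 3.10.9 were used. Alternatives were other fold boundaries, a posterior probability of at least 0.99, the second statistic, and removal of marked, predicted, very large or posterior-less genes, centring, protein-coding genes and called genes alone.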

Additional observations from a re-analysis of the deposited data

How the results depend on the processing

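Of the values recomputed under alternatives 149 stayed within their tolerance and 12 moved, the tolerance being 1.5 times for counts and for percentages by length, 0.1 on the log2 scale for list medians, 10 percentage points for the share present at 24 h and 0.05 for rho. One median near 0 changed sign within that tolerance, that of the Polycomb list, which was 0.00391 with a posterior probability required at both times, against -0.02. Without genes bearing the Dox mark the late step alone passed in 135 genes, against 195, and both steps in 77, against 94. The counts depend on the fold boundary: the 47 genes 2-fold higher at 48 h than at 24 h become 370 at 1.5-fold and 0 at 4-fold, and the 47 lower ones 331 and 1. With a 2-fold boundary the classes hold 49 genes with the late step alone, 9 with both steps, 43 with the first step alone, 1 with opposite steps and 882 with neither. With only the genes called at 48 h kept and cut into quartiles anew, 19.5% of the longest, from 60.3 kb, were at least 1.5-fold lower and 18.6% higher. The quartiles before it, from short to long, had 11.9%, 13.1% and 15.3% lower and 16.9%, 14.8% and 11.4% higher. Among called genes the longest quartile thus had the highest share in both directions. The median late step of p53 targets was 0.231 without genes bearing the Dox mark. The other 119 of 120 list medians under alternatives stayed within 0.1 on the log2 scale. Why these values moved was not tested, apart from the boundary itself. No paired analysis was possible because no column holds values per library, and leaving out a replicate or a clone could not be run for the same reason. Depth, level and the spread between libraries are unknown, so no late step has an error.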

Other observations

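Few pairs of neighbouring genes both moved far in the late step, but few genes did so at all. Past 2-fold were 0.368% of all genes in each direction, and past 1.5-fold 2.9% were higher and 2.59% lower. Whether neighbours moved together more often than unrelated genes was not tested. Among 12619 pairs of neighbouring measured genes, both were past 2-fold in the same direction in 2 pairs, Hist2h2aa1 with Hist2h3c1 and Ltb4r2 with Ltb4r1, and in opposite directions in 0. At 1.5-fold there were 20 pairs with both genes higher at 48 h than at 24 h, 12 with both lower and 17 with opposite directions. Pairs with both higher included Hist3h2ba with Hist3h2a, Hist1h2bc with Hist1h1c, Tap1 with Tap2, Lgr6 with Ptprv, and the imprinted growth factor gene Igf2 at 0.94 with its antisense Igf2as at 0.85, overlapping genes whose reads cannot be told apart without strand. Among the lower pairs were Ankhd1 with Eif4ebp3, the inflammasome sensor gene Nlrp6 at -1.05 with Athl1 at -0.84, and the cardiac myosin genes Myh6 at -0.60 and Myh7 at -0.80.

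Opposite neighbours included Brca2 at -0.72 beside N4bp2l1 at 0.80, Rapgef4 at -1.26 beside B230120H23Rik at 0.62, and Dock3 at -1.23 beside Mapkapk3 at 0.59. These 3 pairs were named after their values were seen. Median late steps by chromosome lay between -0.04 on chromosome 8 and 0.04 on chromosome 13, leaving out Y with 1 gene.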
